A study of Caenorhabditis elegans with 4 samples.

Results

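Of 1243 protein-coding genes of the *Caenorhabditis elegans* X chromosome that carry only a sequence name, 42 were high in dissected gonads. A sequence name, such as C39D10.7, records the clone on which a gene was first predicted and says nothing about function. The 42 genes were chosen from 20182 rows of the deposited count table. Levels are in CPM, the count of a gene per 1e+06 counts of its library. A gene was taken when both gonad libraries reached at least 5 CPM and the gonad mean was at least 2 times the mean of *glp-4(bn2)* whole worms. Because the gonad and *glp-4* values themselves chose these genes, their differences are given as a description and not as a test.

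Gonads dissected from young adults of N2, the standard wild-type strain, gave 2 libraries. They were set against 2 libraries of whole young adults of the *glp-4* (bn2) mutant, an allele widely used to obtain worms with very few germ cells. Each sample pooled around 50 gonads or worms, and the labels give neither a growth temperature nor a statement that the duplicates came from separate cultures. A dissected gonad holds germ cells and oocytes together with somatic sheath cells, and a *glp-4* worm keeps its somatic gonad along with all other somatic tissues. Tissue and genotype therefore cannot be told apart in this comparison. In such bulk samples, fewer cells of a type and less RNA per cell cannot be told apart either.

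The X chromosome is known for its unusual state in the germline of this worm. It carries few of the genes used by germ cells, and it is kept largely silent by histone-modifying complexes, among them the MES proteins, while germ cells divide and enter meiosis. Transcription from X rises as oocytes form. The files and the annotation used here give no function for any of the 42 genes, and none is assigned to them here.

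Library totals ranged from 19581108 to 25664413 counts. With 0 counts, a level up to 3 counts is allowed, which is 0.117 to 0.153 CPM in a single library. All 25 genes on a list of germ cell and oocyte markers were higher in gonads by edgeR's quasi-likelihood test (adjusted p under 0.05, fold 2 or more), and their summed level was 40838 to 41527 CPM in gonads and 410 to 438 CPM in *glp-4* worms. All 12 intestine markers and all 8 body wall muscle markers were lower in gonads. Intestine markers summed to 146 to 203 CPM there, against 45339 to 49892 CPM in *glp-4* worms. Body wall muscle markers summed to 323 to 352 CPM in gonads, against 17982 to 19230 CPM in *glp-4* worms. Also lower in gonads were all 6 pharynx, 7 of 8 epidermis and 8 of 10 neuron markers. The epidermis marker *nhr-23* was higher in gonads, at 82.4 against 5.53 mean CPM. Of 9 somatic gonad markers in the table, 1 was higher and 5 were lower in gonads. Over all tested genes, 30.9% were called higher and 53.1% lower in gonads, so nothing is read from the somatic gonad counts. Of 7 tested sperm markers, 4 were higher and 2 were lower in gonads. Of the list's summed 67.4 and 68 CPM in gonads, *spe-44* (chosen after its values were seen) made up 56.1 and 60.3 CPM. It had 0.562 and 1.79 CPM in *glp-4* worms. Also higher were *spe-11*, *gsp-3* and *gsp-4*, at only 0.89 to 1.36 mean CPM in gonads. Lower were *spe-4* (0.181 against 3.39 mean CPM in *glp-4* worms) and *spe-26* (0.721 against 6.96). Of all 13 on that list, 9 stayed under 1 mean CPM in gonads and 9 did so in *glp-4* worms.

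**Figure D1:**
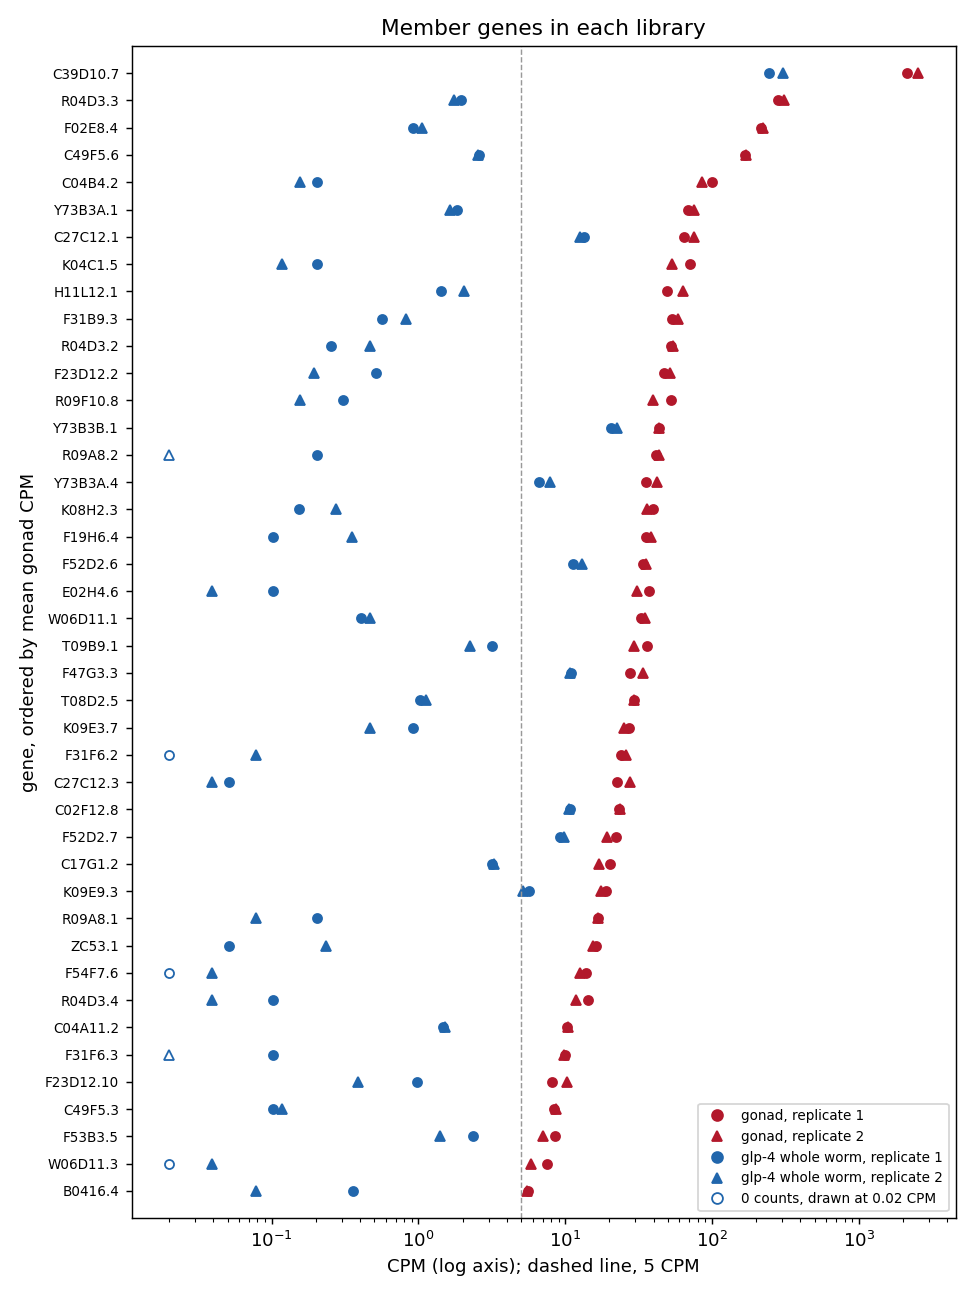
Level of each of the 42 genes in every library, as CPM on a log axis. Red symbols are gonads and blue symbols are *glp-4* worms, with circles for replicate 1 and triangles for replicate 2. Gonad means run between 5.53 and 2336 CPM, and *glp-4* values are spread between 0 counts and 306 CPM.

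In gonads the 42 genes had mean levels between 5.53 and 2336 CPM, with a median of 33.2 CPM, and in *glp-4* worms between 0.0195 and 275 CPM, with a median of 0.685 CPM. The median ratio of gonad to *glp-4* level was 77.3, or 6.27 on the log2 scale. Among all 5789 protein-coding genes with at least 5 CPM in both gonad libraries, the median log2 ratio was 1.25. All 42 passed the count filter and were called higher in gonads, a call made for 30.9% of all tested genes, and for all 42 the lowest gonad library lay above the highest *glp-4* library, as it did for 30.8% of all rows with a count. Both were likely given how the genes were picked, so neither is read as a result.

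One gene made up most of the counts of the set. C39D10.7 (WBGene00016534, chromosome X, 7907966 to 7913930 of assembly WBcel235, minus strand) had 2139 and 2533 CPM in the gonad libraries, against 244 and 306 CPM in *glp-4* libraries. The ratio of means was 8.49, with 2336 ± 278 CPM in gonads and 275 ± 43.6 CPM in *glp-4* worms (SD, n = 2 each). It accounted for 53% and 56.8% of the summed CPM of the 42 genes in gonad replicates 1 and 2, and for 68.1% and 72.6% in *glp-4* replicates 1 and 2. Without it the set summed to 1895 and 1924 CPM in gonads and to 114 and 116 CPM in *glp-4* worms.

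Scaled for length as TPM (counts divided by merged exon length and rescaled to 1e+06 per library), C39D10.7 also came first among the 42, with a mean of 1049 TPM in gonads and 115 TPM in *glp-4* worms. R04D3.3 came second at 313 TPM in gonads and 1.81 TPM in *glp-4* worms, and F02E8.4 followed at 140 TPM in gonads and 0.59 TPM in *glp-4* worms. The median over the 42 genes was 29.9 TPM in gonads, and the lowest level was 7.25 TPM, for R09A8.1. Levels of 6 of the genes were at or above 100 TPM in gonads.

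The genes next in gonad CPM had far lower values in *glp-4* worms. R04D3.3 (WBGene00011011, chromosome X, 13288917 to 13290631) had 283 and 310 CPM in gonads, against 1.94 and 1.75 CPM in *glp-4* worms, a ratio of 160. F02E8.4 (WBGene00017177, chromosome X, 4454120 to 4457304) had 215 and 221 CPM in gonads, against 0.919 and 1.05 CPM in *glp-4* worms, a ratio of 221. C49F5.6 (WBGene00008210, chromosome X, 11988314 to 11991292) followed with 168 and 171 CPM in gonads, against 2.6 and 2.53 CPM in *glp-4* worms. In these 3 genes the replicates of a group lay close together, and the group means were apart by a factor of at least 66.1.

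C04B4.2 (WBGene00007290, chromosome X, 12283281 to 12285316) had almost no counts in *glp-4* worms. It had 100 and 84.8 CPM in gonads, and 4 counts in each *glp-4* library, 0.204 and 0.156 CPM. Its ratio from the summed counts was 520, with a 95% exact counting interval from 264 to 1206. Such intervals cover counting error alone, and reads amplified by PCR do not each stand for a separate molecule. K04C1.5 (WBGene00010555, chromosome X, 14248053 to 14249845) had 70.3 and 53 CPM in gonads, and 4 and 3 counts in *glp-4* worms, a summed-count ratio of 396 (192 to 985).

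The other genes among the 12 with the highest gonad CPM covered a wide range of ratios. Y73B3A.1 (chromosome X, 42632 to 46933) had 69 and 74.9 CPM in gonads, against 1.84 and 1.64 CPM in *glp-4* worms. C27C12.1 (chromosome X, 14852552 to 14853762) had 64.2 and 75.2 CPM in gonads, against 13.4 and 12.7 CPM in *glp-4* worms, a ratio of 5.35 where that of Y73B3A.1 was 41.4. H11L12.1, which lies close to the right end of the chromosome (17710285 to 17711698), had 49.2 and 63.9 CPM in gonads, against 1.43 and 2.03 CPM in *glp-4* worms. F31B9.3, R04D3.2 and F23D12.2 had ratios of 81, 147 and 140, the last with a log2 ratio of 7.13 that became 7.99 without *glp-4* replicate 1.

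The 42 genes can be divided by their *glp-4* level. For 24 genes the *glp-4* mean was under 1 CPM, with gonad means between 5.53 and 218 CPM and a median ratio of 181. For 9 genes it lay between 1 and 5 CPM, with a median ratio of 27.4. For the remaining 9 it was 5 CPM or more, with a median ratio of 2.87 and a highest ratio of 8.49. Median gonad levels of these sets were 30, 32.6 and 34.8 CPM, in that order.

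**Figure D2:**
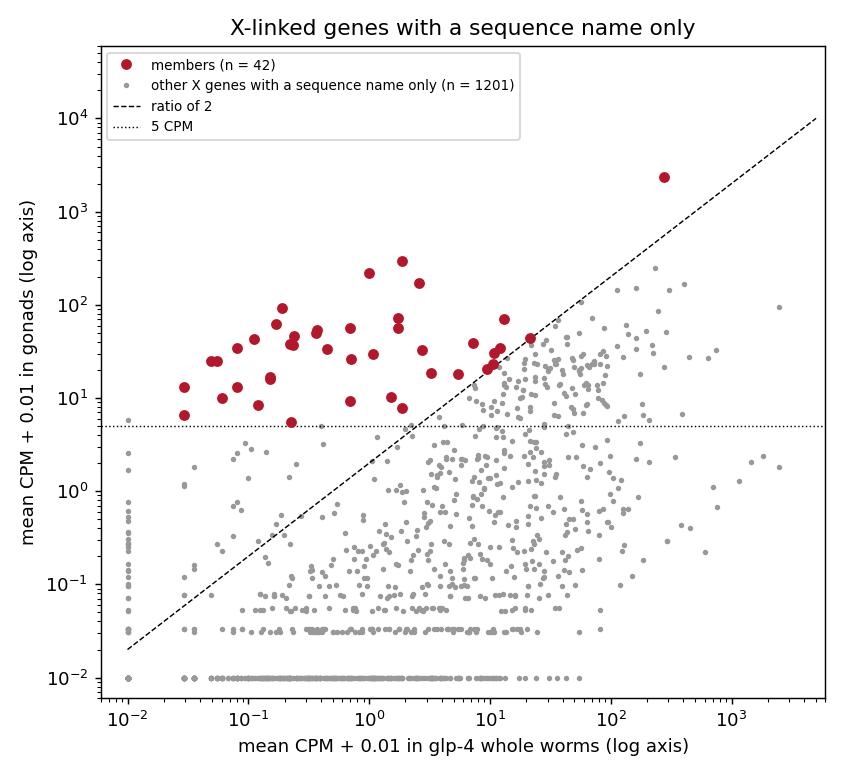
Mean gonad CPM against mean *glp-4* CPM for 1243 X-linked protein-coding genes with a sequence name only, with 0.01 added and both axes on a log scale. The 42 chosen genes (red) lie above both threshold lines, most of them well to the left of the ratio line, and C39D10.7 stands alone at 2336 CPM in gonads, against 275 CPM in *glp-4* worms.

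At the lower end of *glp-4* RNA, 7 genes had 3 or fewer counts over both *glp-4* libraries, which were too few to place their ratios closely. F54F7.6 (chromosome X, 11865383 to 11866827) had 13.8 and 12.7 CPM in gonads, and 0 and 1 count in *glp-4* worms, a summed-count ratio of 599 with an interval from 107 to 23682. W06D11.3 had 7.47 and 5.8 CPM in gonads and also 0 and 1 count in *glp-4* worms, a ratio of 298 (53.1 to 11821). F31F6.2 and C27C12.3 had 2 counts each, with ratios of 568 (157 to 4696) and 567 (156 to 4684). Without *glp-4* replicate 1, which had 0 counts of each, the log2 ratio of mean CPM was lower in F54F7.6 (8.41 against 9.41), W06D11.3 (7.41 against 8.41) and F31F6.2 (8.33 against 9.33).

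Another 3 genes had 2 or 3 counts in *glp-4* worms. For E02H4.6 (37.4 and 30.9 CPM in gonads) the ratio was 512 (175 to 2485). For R04D3.4 (14.4 and 11.8 CPM in gonads) it was 196 (66.7 to 953), and for F31F6.3 (10 and 9.81 CPM in gonads) it was 224 (61.8 to 1859). Without *glp-4* replicate 1 the log2 ratio of mean CPM was 9.77 for E02H4.6 (against 8.92) and 8.39 for R04D3.4 (against 7.53), and without replicate 2 it was 6.60 for F31F6.3 (against 7.60). The intervals of all 7 genes overlap, so their order cannot be read from these libraries.

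R09A8.2 (chromosome X, 12619465 to 12623678) was similar, with 41.7 and 43.3 CPM in gonads, and 4 and 0 counts in *glp-4* worms (ratio 481, 188 to 1768). Its left neighbour R09A8.1 had 16.8 and 16.7 CPM in gonads and 4 and 2 counts in *glp-4* worms (126, 57.7 to 345). C49F5.3 had 8.35 and 8.61 CPM in gonads and 2 and 3 counts in *glp-4* worms (76.8, 32.6 to 238). One *glp-4* library weighed on the first 2, with log2 ratios of 7.70 for R09A8.2 without replicate 2 (against 8.70) and 7.75 for R09A8.1 without replicate 1 (against 6.89). In all 3 genes every gonad library was above both *glp-4* libraries. The same held for all 42 genes, as was likely given how they were picked, and for 30.8% of all rows with a count.

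At the other end lay genes that only just met the ratio of 2. Y73B3B.1 (chromosome X, 209108 to 211241) had 43.6 and 43.7 CPM in gonads, against 20.4 and 22.5 CPM in *glp-4* worms, a ratio of 2.03 (1.02 on the log2 scale, and 0.96, below the rule, without *glp-4* replicate 1). F52D2.7 followed with 22.1 and 19.3 CPM in gonads, against 9.24 and 9.74 CPM in *glp-4* worms, and C02F12.8 with 23.1 and 23.7 CPM in gonads, against 10.8 and 10.6 CPM in *glp-4* worms. Just outside were F53B1.2 at a ratio of 1.97 and ZK154.5 and K09A11.1 at 1.88 each, with gonad means of 27, 106 and 13.9 CPM.

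The minimum of 5 CPM was met most narrowly by B0416.4, with 5.59 and 5.47 CPM in gonads, against 0.357 and 0.0779 CPM in *glp-4* worms. Its log2 ratio of 4.67 was 6.15 without *glp-4* replicate 1 and 3.95 without replicate 2. W06D11.3 and F53B3.5 came next, the last with 8.53 and 7 CPM in gonads, against 2.35 and 1.4 CPM in *glp-4* worms. F31F6.1 fell just outside with 6.65 and 4.84 CPM in gonads and 0 counts in both *glp-4* libraries. F13C5.1 and C06E2.5 were also just outside, with ratios of 2.38 and 2.28.

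Gonad replicates differed little for most of the genes. The level in replicate 2 over that in replicate 1 ranged between 0.753 and 1.3, with a median of 1.02 against 0.961 for all protein-coding genes with at least 5 CPM in both gonad libraries. Within a factor of 1.2 were 31 of the 42 genes, or 73.8%, against 79.9% of that larger set, and within a factor of 1.3 were 40, or 95.2%, against 92.6%, so the order of these shares turned with the factor chosen. The widest differences were those of K04C1.5 and of R09F10.8, both lower in replicate 2 (53 against 70.3 CPM and 39.5 against 52.3 CPM), and of H11L12.1, which was higher there.

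The X chromosome held few such genes for its size. The expression rule was met by 3.38% of the 1243 X genes with a sequence name only (95% Wilson interval 2.51% to 4.54%, counting error only) and by 14.2% of the 6756 autosomal genes of the same kind (13.4% to 15%). By chromosome the autosomal share was lowest on V, at 8.61% (7.42% to 9.97%), and highest on III, at 21.6% (19.2% to 24.3%), so that each autosome had a higher share than X. X genes with a hyphenated name, which usually reflects a known phenotype, family or product, had a share of 2.78% (2.02% to 3.81%), or 37 of 1331, whose interval overlaps that of the X genes with a sequence name only. These shares come from the same values that defined the set and were not tested.

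**Figure D3:**
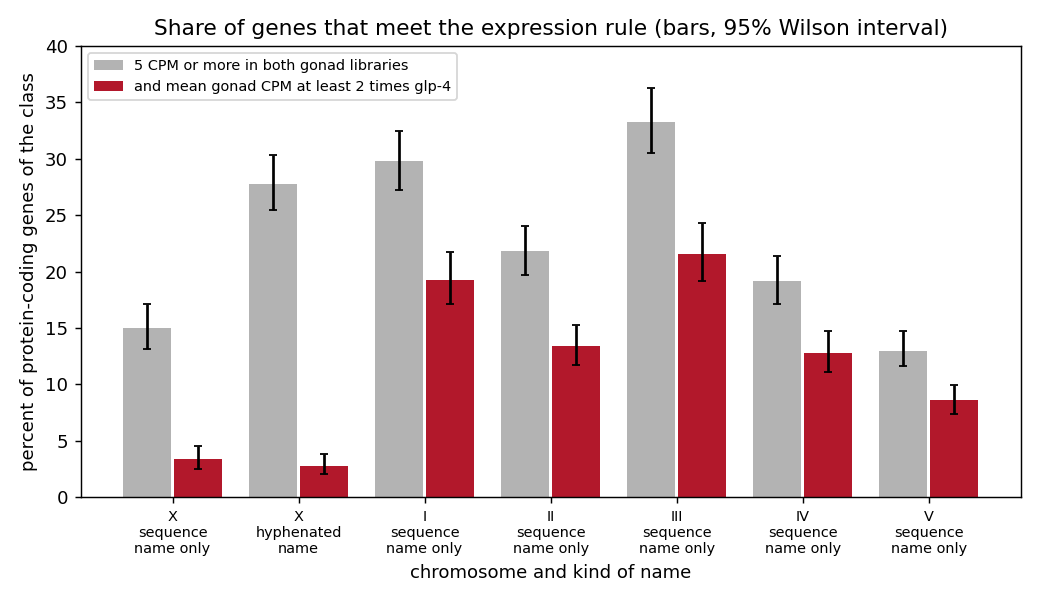
Percent of protein-coding genes with at least 5 CPM in both gonad libraries (grey) and of those that also had a mean gonad CPM at least 2 times that of *glp-4* worms (red), by chromosome and kind of name, with 95% Wilson intervals. Red bars on X stand at 3.38% and 2.78%, and those on autosomes between 8.61% and 21.6%.

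Most X genes with a sequence name only and gonad RNA had no higher mean in gonads than in *glp-4* worms. Of 186 X genes with a sequence name only and at least 5 CPM in both gonad libraries, the 42 made up 22.6%, whereas 64.7% of 1483 such autosomal genes met the ratio of 2. Among the other 144 X genes, 29 had a higher mean in gonads, 79 had a *glp-4* mean at least 2 times their gonad mean, and the median log2 ratio of the 144 was -1.16. On chromosome V, 13% of genes with a sequence name only reached 5 CPM in both gonad libraries, near the 15% of X, yet 66% of those met the ratio.

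The few X genes that met the rule tended to do so by a wide margin. Their median log2 ratio was 6.27 (quartiles 2.86 and 7.59), against 3.60 (1.66 and 4.88) for the 37 X genes with a hyphenated name and 2.28 (1.60 and 3.92) for 959 autosomal genes with a sequence name only. Median gonad levels were 29.9 TPM for the 42 genes, 23.4 TPM for the X genes with a hyphenated name and 67.7 TPM for the autosomal genes, and median *glp-4* levels were 0.548, 3.76 and 10.5 TPM. A *glp-4* mean under 1 CPM was found for 57.1% of the 42, 40.5% of the 37 and 13.2% of the 959. These are descriptions of selected sets, with no test of their difference.

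**Figure D4:**
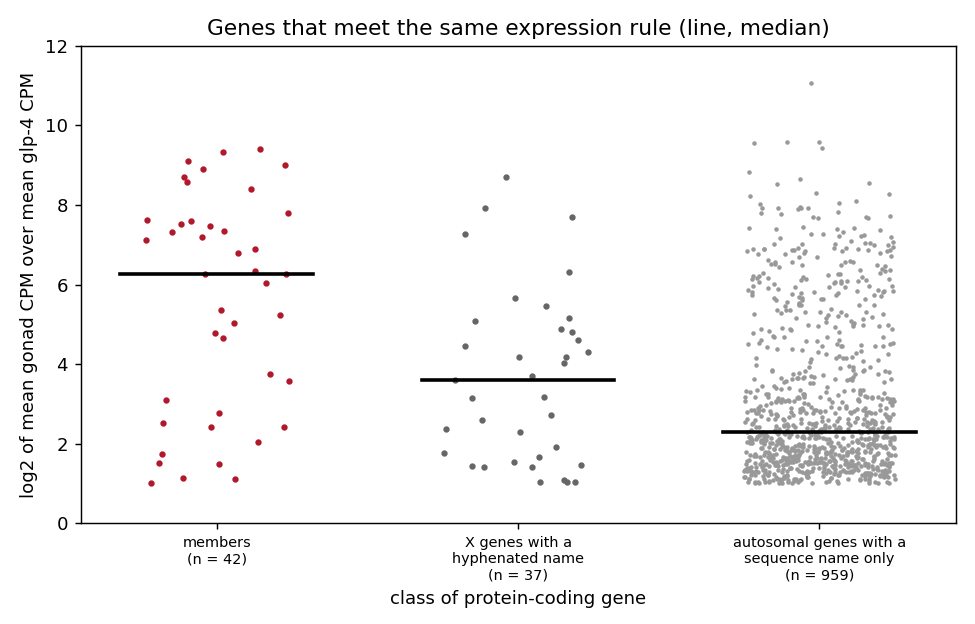
Log2 ratio of mean gonad CPM to mean *glp-4* CPM for protein-coding genes that met the same expression rule, 1 point a gene, with the median as a line. Medians are 6.27 for the 42 genes, 3.60 for X genes with a hyphenated name and 2.28 for autosomal genes with a sequence name only, where 5 genes with 0 *glp-4* counts are not drawn but count as highest in the median.

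X genes with a hyphenated name that met the rule give a scale for these levels. The highest gonad CPM was that of *mrp-4*, an ABC transporter gene, with 644 and 569 CPM in gonads, against 50.8 and 49.4 CPM in *glp-4* worms. Next came *meg-1*, which encodes a germ granule protein, with 452 and 474 CPM in gonads, against 14.9 and 10.8 CPM in *glp-4* worms. The MAP kinase kinase gene *mek-1* (ratio 2.7), the gap junction innexin gene *inx-3* (29.4) and the choline transporter-like gene *chtl-1* (13) had gonad means of 203, 157 and 149 CPM. Per length, C39D10.7 at 1049 TPM stood above all 5 (86.3 to 314 TPM in gonads), and R04D3.3 at 313 TPM was level with *meg-1* at 314 TPM.

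RNA of germ cell and oocyte markers was also counted in *glp-4* worms, and none of the 42 genes is assigned to a cell type by these data. Over the 42 genes the *glp-4* level, as a percent of that in gonads, had a median of 1.29% and a range of 0.147% to 49.2%. Over the 25 germ cell and oocyte markers, including *glh-1*, *gld-1* and *rme-2*, the median was 0.948%, and 3 of these markers had under 1 CPM there. How much of the *glp-4* RNA of the 42 genes came from remaining germ cells was not tested.

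Genes for regulators of X and of germline chromatin were present in the same gonads. Of 15 on a list chosen with earlier results of these data known, 14 were higher in gonads by edgeR's quasi-likelihood test with the same limits, beside 30.9% of all tested genes. The H3K36 methyltransferase gene *mes-4* had 354 and 384 CPM in gonads, against 11.2 and 13.4 CPM in *glp-4* worms. The H3K27 methyltransferase gene *mes-2* had a log2 fold change of 2.88 ± 0.138 (SE). The remaining gene, *mes-3*, which encodes a partner of MES-2, had a log2 fold change of 0.98 ± 0.126 (SE), just under the fold minimum.

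The 42 genes were unevenly placed along the chromosome. With X divided into 3 segments of equal length, 11 lay in the left segment, 5 in the middle one and 26 in the right one, which starts at 11.8 Mb. All X genes with a sequence name only were spread more evenly, with 402, 448 and 393 in those segments, so that the 42 made up 2.74%, 1.12% and 6.62% of them. X genes with a hyphenated name that met the rule were placed differently, with 17, 7 and 13. Among X genes with a sequence name only and at least 5 CPM in both gonad libraries, 54, 66 and 66 lay in the left, middle and right segments.

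Ratios also differed between the segments. In the right segment the median ratio of the 26 genes was 154 (range 3.35 to 681), in the middle one 12 (5.78 to 199) and in the left one 4.14 (2.03 to 221). Of the 24 genes with under 1 CPM in *glp-4* worms, 20 lay in the right segment, and of the 9 with 5 CPM or more there, 6 lay in the left. F02E8.4, with a ratio of 221, and ZC53.1, with 111, were the left-segment exceptions (ZC53.1 with a log2 ratio of 6.79 that became 6.08 or 8.27 without *glp-4* replicate 1 or 2), while C27C12.1 and K09E9.3 kept 13 and 5.41 mean CPM in *glp-4* worms from the right segment. The X genes with a hyphenated name that met the rule had medians of 18, 8.84 and 9.01 in the left, middle and right segments. Of all X genes with a sequence name only, 177, 185 and 188 in those segments had a *glp-4* mean under 1 CPM.

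Many of the 42 genes were neighbours. Counting along the 2731 protein-coding genes of X, 21 of the 42 (50%) had another of them within 3 gene places, at 9 loci, and 11 (26.2%) had one in the adjacent place. For the 37 X genes with a hyphenated name that met the rule these numbers were 9 (24.3%) and 5 (13.5%). Of the 24 genes with under 1 CPM in *glp-4* worms, 14 were at such loci. Between the members of a locus lay 8 other genes, 5 of them under 1 mean CPM in gonads and 2 at 5 CPM or more. Of 30 flanking genes in the table, 24 were under 1 mean CPM and 4 at 5 CPM or more. In both gonad libraries, 15% of X genes with a sequence name only and 27.8% with a hyphenated name reached 5 CPM. The share of all X genes under 1 mean CPM was not taken, so these neighbours are not read as unusually low.

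**Figure D5:**
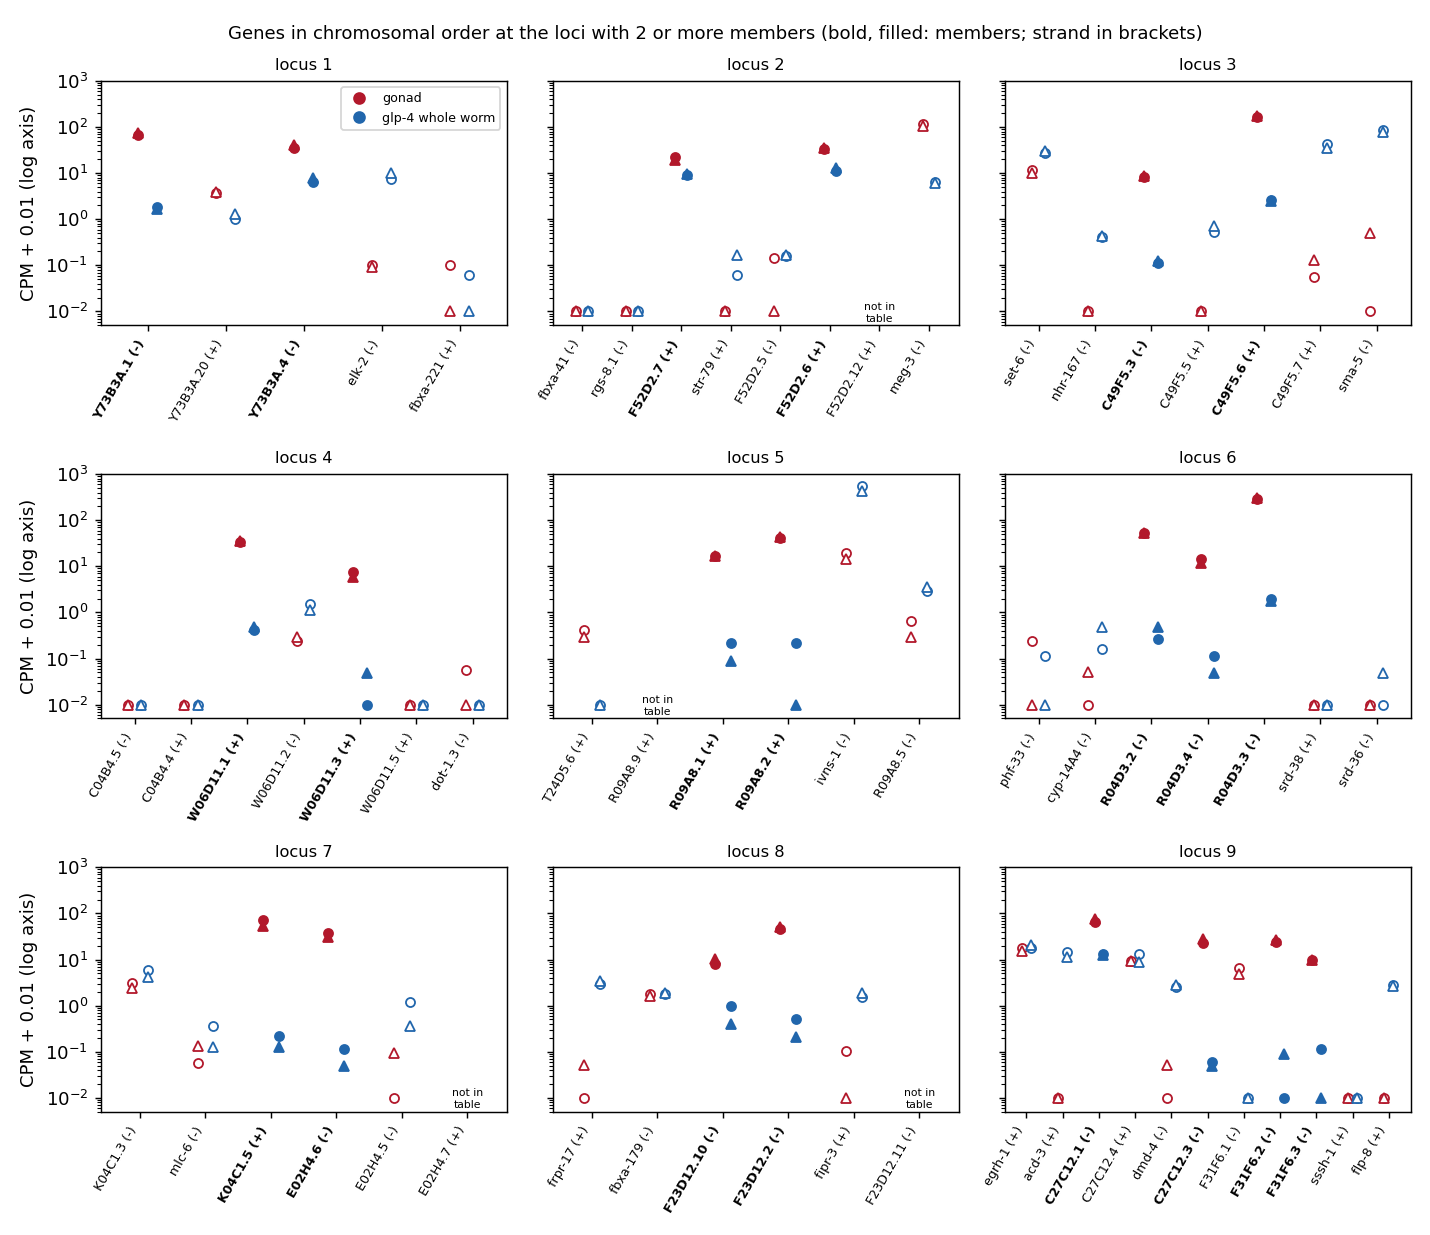
CPM plus 0.01 on a log axis for genes in chromosomal order at the 9 loci with 2 or more of the 42 genes, in gonads (red, left of each pair) and *glp-4* worms (blue), with circles for replicate 1, triangles for replicate 2 and the strand in brackets. Filled symbols and bold names mark the chosen genes. Neighbours such as *cyp-14A4* and *srd-38* at locus 6 were near or at 0 in gonads. Others were as high as or higher than chosen genes, such as *meg-3* at locus 2, with 112 mean CPM against 20.7 for F52D2.7 and 34.8 for F52D2.6.

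The locus with the most members held 4 of the genes on the minus strand within 20316 bases (14852552 to 14872867). From left to right these were C27C12.1 (64.2 and 75.2 CPM in gonads, 13.4 and 12.7 CPM in *glp-4* worms), C27C12.3 (22.4 and 27.4 CPM, 0.0511 and 0.039 CPM), F31F6.2 (24.1 and 26 CPM, 0 and 0.0779 CPM) and F31F6.3 (10 and 9.81 CPM, 0.102 and 0 CPM). F31F6.1, which missed the minimum in gonad replicate 2, lies on the same strand between C27C12.3 and F31F6.2, so that 4 consecutive genes had gonad RNA and at most 2 *glp-4* counts each. Between C27C12.1 and C27C12.3 the pattern broke. There C27C12.4 had 9.45 and 9.23 CPM in gonads, against 12.9 and 8.61 CPM in *glp-4* worms, and *dmd-4*, a DM-domain transcription factor gene, had 0 and 0.0414 CPM in gonads, against 2.55 and 2.81 CPM in *glp-4* worms.

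At the R04D3 locus 3 adjacent genes on the minus strand spanned 5511 bases. R04D3.2 had 52.3 and 54 CPM in gonads, against 0.255 and 0.468 CPM in *glp-4* worms, and R04D3.4 lay between it and R04D3.3. The annotated ends of R04D3.4 and R04D3.3 are 101 bases apart, yet their gonad levels per length were 27.5 and 313 TPM. On either side *cyp-14A4*, a cytochrome P450 gene, and *srd-38*, a chemoreceptor-family gene, had 0.0207 and 0 mean CPM in gonads and 0.31 and 0 mean CPM in *glp-4* worms. Gonad levels thus differed widely between adjacent genes.

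Neighbours on opposite strands shared the pattern as well. K04C1.5 on the plus strand and E02H4.6 on the minus strand lie with their annotated 3' ends 666 bases apart, and both were lower in gonad replicate 2 (70.3 and 53 CPM, and 37.4 and 30.9 CPM). C49F5.3 and C49F5.6 lie on opposite strands around C49F5.5, which had 0 counts in both gonad libraries and 0.511 and 0.701 CPM in *glp-4* worms. Beyond C49F5.6 the gene C49F5.7 had the reverse pattern, with 0.0459 and 0.124 CPM in gonads, against 43.4 and 35.8 CPM in *glp-4* worms.

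The remaining loci were pairs. R09A8.1 and R09A8.2 are adjacent on the plus strand, and their neighbour *ivns-1* had 19.5 and 14.5 CPM in gonads against 554 and 427 CPM in *glp-4* worms. F23D12.10 (8.07 and 10.3 CPM in gonads, 0.97 and 0.39 CPM in *glp-4* worms, log2 ratio 3.76, or 4.56 without *glp-4* replicate 1) and F23D12.2 are adjacent on the minus strand. W06D11.1 (33 and 34.7 CPM in gonads, 0.409 and 0.468 CPM in *glp-4* worms) and W06D11.3 enclose W06D11.2, a gene with 0.26 mean CPM in gonads and 1.31 in *glp-4* worms.

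The last pairs lay in the left segment. Y73B3A.1 and Y73B3A.4 (35.3 and 41.9 CPM in gonads, 6.59 and 7.91 CPM in *glp-4* worms) lie on the minus strand around Y73B3A.20, which had 3.78 mean CPM in gonads and 1.15 in *glp-4* worms. F52D2.7 and F52D2.6 lie on the plus strand within 14022 bases. F52D2.6 had 34.1 and 35.4 CPM in gonads, against 11.3 and 13 CPM in *glp-4* worms. Close by is *meg-3*, which encodes a germ granule protein and had 116 and 108 CPM in gonads, against 6.43 and 6 CPM in *glp-4* worms.

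The genes had longer median exon and coding lengths than all X genes with a sequence name only. The minimum of 5 CPM is not scaled for length, so at equal TPM a longer gene reaches it more easily. Its part in these lengths was not tested. Merged exon length ranged from 557 to 4499 bases with a median of 1526, and the coding sequence had a median of 1122 bases, against medians of 1068 and 756 bases over all 1243 X genes with a sequence name only. Autosomal genes with a sequence name only that met the rule were likewise longer, with medians of 1392 exon bases and 1125 coding bases, against 1040 and 825 bases over all autosomal genes of that kind. The longest predicted protein, of F23D12.2, has 1409 residues, and the shortest, of F52D2.6, has 134. The annotation gives a median of 5 exons per gene, as for all 1243, and a single transcript for 38 of the 42. By strand, 19 lie on plus and 23 on minus.

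Exons of 8 genes overlap those of another gene, and in 1 of them, Y73B3B.1, the overlap exceeds 20% of exon length, at 85.9%. Its partner Y73B3B.3, on the opposite strand, was counted at 0.688 and 0.828 CPM in gonads and at 0.102 and 0.039 CPM in *glp-4* worms. The sources used here do not state that strand was kept, so reads of these partners cannot be told apart, and the level of Y73B3B.1 is uncertain. For C27C12.1 the overlap is 7.14%, with *acd-3* on the opposite strand, which had 0 counts in both gonad libraries and 14.3 and 11.1 CPM in *glp-4* worms, close to the 13.4 and 12.7 CPM of C27C12.1 there. R09F10.8 shares 6.91% with R09F10.1, also on the opposite strand, which had 0.138 and 0.248 CPM in gonads, against 48.4 and 40.4 CPM in *glp-4* worms. The part of these partners in either value was not tested. T08D2.5 (29.5 and 29.5 CPM in gonads, 1.02 and 1.13 CPM in *glp-4* worms) shares 11.1% of its exon length with T08D2.4 on the same strand, and F31F6.2 and F31F6.3 share 0.789% and 1.5% of theirs with each other.

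One gene has since been given another kind of name. F19H6.4 (35.4 and 38.1 CPM in gonads, 0.102 and 0.351 CPM in *glp-4* worms) is *srdf-2.1* in the RefSeq gene table of the same assembly. Its log2 ratio of 7.34 was 6.71 without *glp-4* replicate 1 and 8.49 without replicate 2. The other 41 carry their sequence name there too. Ratios of genes not described above were those of K08H2.3 (178), T09B9.1 (12), F47G3.3 (2.82), K09E3.7 (37.8), C17G1.2 (5.78) and C04A11.2 (6.88).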

How the data were processed

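Total RNA of 4 samples was depleted of ribosomal RNA and amplified to cDNA libraries, per the labels' protocols. The authors deposited raw counts per gene and a table on a log2 scale; tested row by row, each log2 value was that of the scaled count (all libraries brought to their mean total) with 8 added, within 5e-05, and that table was not used further. Aligner, counter and authors' build were not given in the sources used here. Names, positions and exons come from Ensembl release 115 (WBcel235), which may not be the authors' annotation, and 668 rows (1.14% to 1.22% of counts) have no entry in it.

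CPM used the column sums. Membership, ratios, neighbours and length-scaled TPM were computed in Python 3.11.15. All rows but 1 duplicate (20181) were fitted in edgeR 4.0.16 (R 4.3.3, quasi-likelihood, robust, TMM, filterByExpr with minimum count 10 and total 15, Benjamini-Hochberg adjustment) and, as an alternative, DESeq2 1.42.0. The fit was tested on counts simulated with known fold changes, where the share of false calls was above the adjusted p limit of 0.05. The labels do not give the duplicates as separate cultures, so p-values measure only their spread, which may be technical. A chi-square test of counts gave 13.9 per degree of freedom between gonad libraries and 14 between *glp-4* libraries, so each counted as a sample.

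The genes and lists were chosen with earlier results of these data known. Genes were named by gonad level (12), ratio (8), lowest *glp-4* level (5), closeness to the thresholds (3 on each side), neighbourhood, and protein length; the last paragraph names others after their values were seen. Protein identity could not be used, as no sequences were at hand. The factors for replicate differences, 1.2 and 1.3, were set after the values were seen.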

Additional observations from a re-analysis of the deposited data

How the results depend on the processing

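Leaving out each library in turn gave 43 to 46 genes, a share of 3.46% to 3.7%. Over the original 42 genes the median log2 ratio was then 6.12 to 6.36. Genes with 0 counts in the remaining *glp-4* library counted as highest in that median. No median was taken over the newly chosen sets. Without *glp-4* replicate 1 the set lost Y73B3B.1, and leaving out any other library lost none of the 42. A minimum of 1 CPM gave 61 genes (4.91%), of 10 CPM 36, and a ratio of 4 also 36; dropping genes whose exons overlap another left 34. TMM-adjusted library sizes raised the log2 ratios of the original 42 genes by 0.15, to a median of 6.43, and gave 48 genes, all 42 among them. Single *glp-4* libraries moved the ratio of 13 genes by over 1.5 times, most for B0416.4, with a log2 ratio of 6.15 without *glp-4* replicate 1 and 3.95 without replicate 2, against 4.67. In 5 cases the remaining library had 0 counts and gave no ratio.

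The replicate numbers were not treated as pairs, as the labels name nothing shared by a number and there are 2 pairs; deviations of same-numbered libraries correlated at 0.0893 over genes. With a replicate block, 4019 genes were higher and 6904 lower in gonads, against 4043 and 6952 without it, and all 42 genes were still called.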

Other observations

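Chosen after the positions were seen, the stretch of X between 11 and 15 Mb held 22 of the 42 genes (52.4%) and 298 of the 1243 X genes with a sequence name only (24%), so that 7.38% of the 298 met the rule. Of the 37 X genes with a hyphenated name that met the rule, 11 (29.7%) lay in the stretch. No test was made of this pattern.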
